A study of Arabidopsis thaliana with 6 samples.

Results

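The regions described here are places with called peaks of Myc-tagged PIF1. They lie between genes, over 1000 and up to 2000 bp from the nearest protein-coding gene. Peaks of 3 PIF1 peak lists were merged where they overlapped by at least 1 bp, and merged regions with peaks of 2 or 3 lists were kept as consensus regions. Each was placed at the mean of its peak summits, and a region was a member where that position lay outside every protein-coding nuclear gene, with the nearest gene end over 1000 and at most 2000 bp away. This gave 586 member regions among 4845 consensus regions (12.1%). Of all 18378 merged regions, 26.4% had peaks of 2 or 3 lists, and of the 1657 merged regions at this distance 35.4% did. Both values chose the members and are given as a description. Lists 2 and 3 supplied most of the support, since 220 member regions were obtained without replicate 2 and 249 without replicate 3, against 537 without replicate 1.

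A pair of groups of Arabidopsis thaliana was compared. The first was transgenic seedlings that overexpress PIF1 with a Myc epitope tag, and the second was untagged wild-type seedlings, taken through the same anti-Myc immunoprecipitation as background. All were whole seedlings, 3 days old and grown in darkness at 21 °C after 3 h of white light, so binding in different cell types is summed. There were 3 libraries in each group, every one a pool of 4 immunoprecipitations from 2 biological replicates, and each peak list set 1 PIF1 library against its like-numbered wild-type library. The labels used here do not give the promoter that drives the transgene. The tagged protein is overexpressed, so occupancy at the level of the native protein was not measured.

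PIF1 belongs to the phytochrome-interacting factors, a family of basic helix-loop-helix proteins. It accumulates in darkness, where it holds back seed germination and the greening of seedlings, and it is degraded after phytochromes are activated by light. Proteins of this family bind G-box and related E-box elements, which in the compact Arabidopsis genome are mostly studied in the proximal promoter. The regions considered here lie farther out, in the longer intervals between genes.

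With surplus duplicates removed, 5721184 to 14209334 tags remained per PIF1 library and 6134032 to 17323572 per wild-type library. The deepest PIF1 library, replicate 1, gave the shortest list (4578 peaks) with the lowest median fold enrichment (2.71). Of the tags of PIF1 libraries 2 and 3, 70% and 66% were redundant, against 13% in library 1. In wild-type libraries 1, 2 and 3 the redundant share was 24%, 61% and 15%. The part of depth and redundancy in the differences between lists was not tested. List numbers below are replicate numbers. Fold enrichment is the authors' value per peak, a ratio of PIF1 tags to the local wild-type background after scaling, and the peak with the highest value was taken where a list had several in a region. Position classes are compared within a list, since levels differ between the lists.

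Member regions had the highest median fold enrichment of the 4 position classes in every list. In list 1 the 258 member regions with a peak had a median of 4.19 (range 2.01 to 12.19), against 2.85 inside genes, 3.73 up to 1000 bp outside and 3.56 beyond 2000 bp. In list 2 the median of 574 member regions was 8.27 (2.66 to 45.29), against 6.32, 7.56 and 7.22 in the same order. In list 3 the median of 545 was 4.88 (1.99 to 42.64), against 4.01, 4.54 and 4.54. The interquartile ranges of members and of the other classes outside genes overlapped widely in each list, so the class medians differ by less than the spread among regions.

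Set against all other consensus regions, the log2 difference of the medians was 0.33, 0.25 and 0.18 in lists 1, 2 and 3, a mean of 0.25 ± 0.08 (SD, n = 3 lists), with members higher in 3 of 3 lists. The exact two-sided sign-flip permutation test over the lists gave p = 0.25, the smallest that 3 lists allow. In every class the peaks that chose the regions also gave these values, so the differences are a description. The mean difference was 0.41 against regions inside genes, 0.13 against those up to 1000 bp outside and 0.18 against those beyond 2000 bp, each with exact p = 0.25. With peaks of at least 5-fold alone the mean difference from all other consensus regions was 0.07. Among regions held by all 3 lists, members and regions beyond 2000 bp did not keep one order: the members' median was 4.55, 12.8 and 7.25 in lists 1, 2 and 3, against 4.40, 13.8 and 6.63 beyond 2000 bp (mean log2 difference 0.03, exact p = 0.75).

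**Figure D1:**
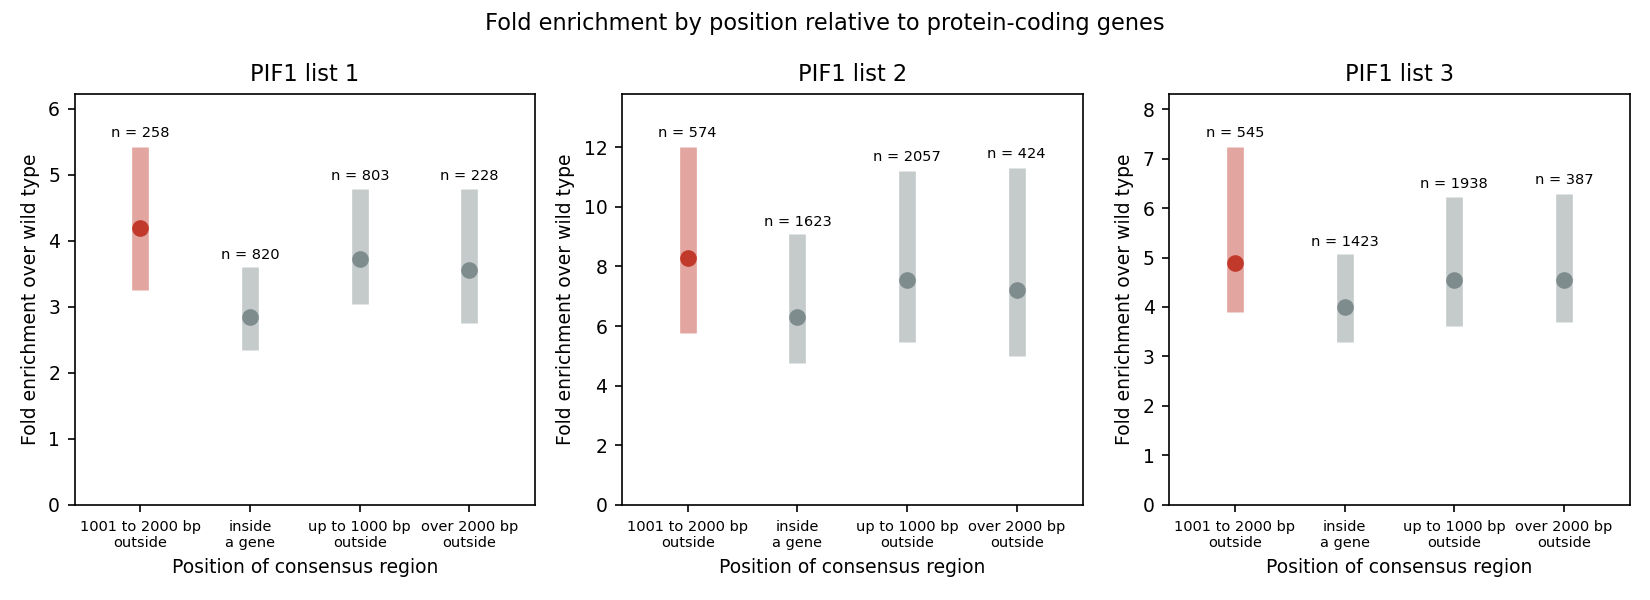
Fold enrichment over wild type (linear axis) in PIF1 lists 1, 2 and 3 for consensus regions grouped by position relative to protein-coding genes; points are medians, bars run from the first to the third quartile, and n is the number of regions with a peak in that list. The members, leftmost in each panel, have medians of 4.19, 8.27 and 4.88, above those of the 3 other classes, while the bars overlap.

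All 3 lists held 205 of the 586 member regions, or 35.0% (95% Wilson interval 31.2 to 38.9). The share was 27.8% (26.5 to 29.2) in all other consensus regions and 28.7% in consensus regions as a whole. By class it was 23.2% inside genes, 30.7% (28.7 to 32.7) up to 1000 bp outside and 32.4% (28.3 to 36.9) beyond 2000 bp. The members' interval overlaps those of both other classes outside genes. Of the 381 member regions of 2 lists, 86.1% had peaks in lists 2 and 3, 10.8% in lists 1 and 2 and 3.15% in lists 1 and 3, against 78.3%, 16.6% and 5.04% of the other consensus regions of 2 lists. Of the 205 members in all lists, 76.1% had their fold enrichments in the order list 2, list 3, list 1, against 79.5% of the other regions of all 3 lists. List 3 was highest in 13.7% of these members, against 8.69%.

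The FDR of the peak caller, made by swapping PIF1 and wild type, was 5% or less in list 2 for 193 of 574 member regions (33.6%), against 26.6% of all consensus regions with a peak in that list. In list 3 this held for 2 of 545 member regions and in list 1 for 0 of 258. Among the other consensus regions it held for 3 of 3748 in list 3 and 0 of 1851 in list 1. Spearman's rho of fold enrichment across member regions was 0.673 between lists 1 and 2 (246 regions), 0.705 between lists 1 and 3 (217) and 0.559 between lists 2 and 3 (533). Regions share libraries and are not replicates.

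Member regions were frequent among the strongest. Ranked by the mean percentile of fold enrichment over the lists, members made up 32 of the 100 strongest regions of all 3 lists (95% Wilson interval 23.7 to 41.7%), against 14.7% of all 1390 such regions. Regions beyond 2000 bp were also more frequent there, with 21 of the 100, against 145 of the 1390. Regions up to 1000 bp outside a gene made up 33 of the 100, against 638 of the 1390, and those inside genes 14, against 402. The same values chose and rank these regions, and no test is attached.

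The strongest member region, at chromosome 4, 6752349 to 6753799 (TAIR10), lay almost midway between MTSSB, for a mitochondrial single-stranded DNA-binding protein (1462 bp), and GH9C3, for a glycosyl hydrolase (1517 bp). It held 266, 497 and 248 PIF1 tags in lists 1, 2 and 3, with fold enrichments of 12.19, 42.11 and 24.54, and its summits lay within 13 bp of each other. The next, at chromosome 2, 18521191 to 18522948, had HB4 (ATHB4), a homeodomain-leucine zipper gene of the shade response, as its nearest gene at 1840 bp. It held 596, 765 and 466 tags, with fold enrichments of 8.60, 31.46 and 24.52 and summits within 18 bp. The region at chromosome 2, 17905656 to 17907664, lay 1986 bp from IBH1, whose helix-loop-helix protein restrains cell elongation. It held 371, 579 and 295 tags, its fold enrichments were 12.07, 34.21 and 14.64, and its outermost summits were 977 bp apart, since it merged 4 peaks. Its strongest summits lay 1745, 1736 and 1749 bp from IBH1 in lists 1, 2 and 3.

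Of the other regions among the strongest 12, several were narrow and isolated. At chromosome 5, 2177881 to 2178654, a region lay 1858 bp from ST2A, a hydroxyjasmonate sulfotransferase gene, with fold enrichments of 8.18, 36.66 and 20.41. XTH15, for a xyloglucan endotransglucosylase/hydrolase of the cell wall, had its region 1746 bp away, at chromosome 4, 8139754 to 8140498 (7.51, 37.73 and 25.55). Neither shared its interval between genes with another consensus region. AT5G28300, annotated as the GT-2-like gene GT2L, had its region 1803 bp away at chromosome 5, 10296676 to 10297564 (8.50, 45.29 and 14.17), and the summits of that region were within 13 bp.

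In longer intervals the far gene could be many kilobases away. AT3G26510 lay 1213 bp and TIP2, a tonoplast aquaporin gene, 8330 bp from chromosome 3, 9713805 to 9714457 (9.72, 29.7 and 17.99). AT1G62480 lay 1996 bp from chromosome 1, 23126297 to 23126941 (8.71, 31.59 and 19.17), in an interval of 11056 bp. AT4G36860 lay 1603 bp from chromosome 4, 17363307 to 17364119 (7.24, 35.05 and 33.29), with the homeodomain gene BLH2 at 5183 bp. These 3 intervals held 3, 2 and 1 further consensus regions.

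The other 3 of the 12 were broad merged regions, for which the mean of the summits is a loose position. Between AT4G01245 (1522 bp) and WRKY22 (1820 bp), a region of 2390 bp at chromosome 4, 524972 to 527361, merged 6 peaks (8.55, 26.49 and 27.93). Its strongest summits lay 948, 943 and 951 bp from AT4G01245. A region of 3059 bp at chromosome 3, 4122956 to 4126014, was placed 1014 bp from BRG3, a RING-type ubiquitin ligase gene (7.83, 31.31 and 42.64), reached into a gene and had its strongest summits 858, 863 and 878 bp from BRG3. The widest of all members, 4748 bp at chromosome 4, 18327738 to 18332485, merged 7 peaks between PLS (POLARIS), for a small peptide of auxin and ethylene responses, and WRKY13. It was placed 1159 bp from PLS in an interval of 2906 bp. The strongest summits of lists 1, 2 and 3 lay 2259, 2253 and 2240 bp from PLS. Those summits were nearer to WRKY13 than to PLS, and within 1000 bp of WRKY13.

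**Figure D2:**
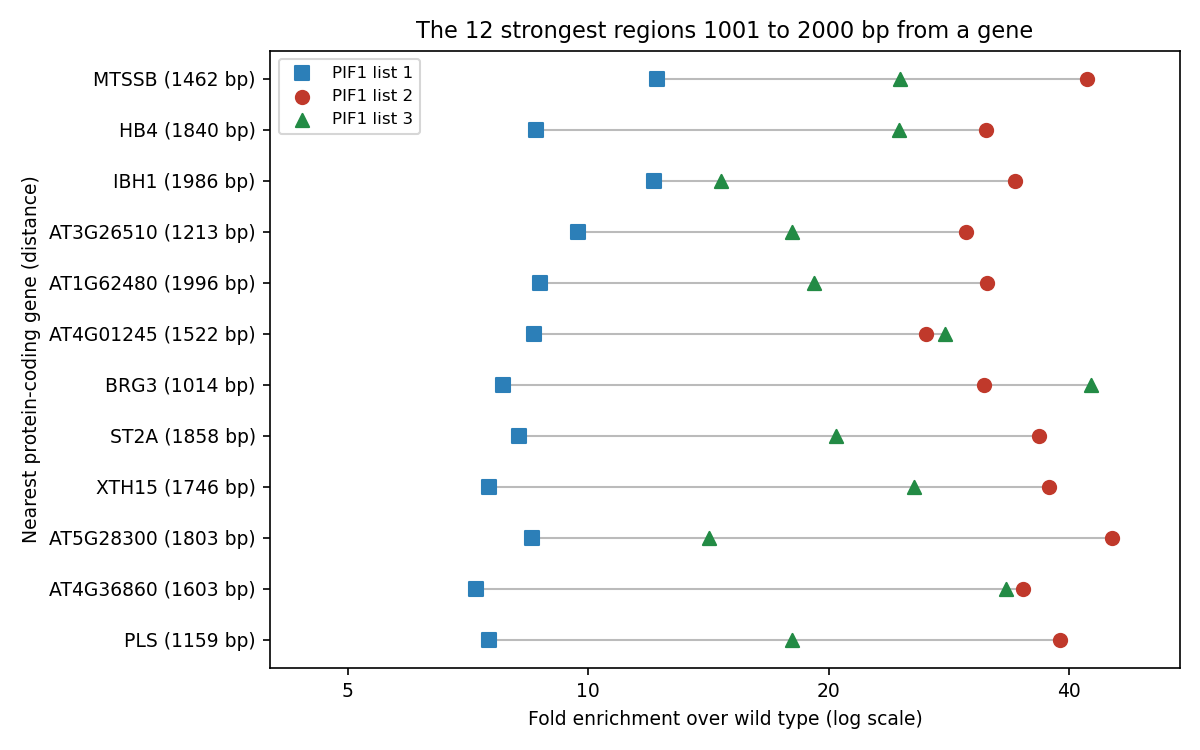
Fold enrichment over wild type (log axis) in PIF1 lists 1, 2 and 3 for the 12 members of all 3 lists that rank highest by mean percentile, labelled by the nearest protein-coding gene and its distance. List 1 is lowest in each of the 12 rows, between 7.24 and 12.19, and list 3 exceeds list 2 at AT4G01245 and BRG3.

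Per length of sequence, consensus regions were more frequent in the members' zone than farther out or inside genes, and less frequent than up to 1000 bp outside genes. Zones were scaled by the sequence they hold between the first and the last gene of each chromosome. The zone over 1000 and up to 2000 bp spanned 8.88 Mb and held 66.0 consensus regions per Mb, against 26.9 inside genes, 85.6 up to 1000 bp outside and 20.4 beyond 2000 bp. For regions of all 3 lists the densities were 23.1 per Mb in the members' zone, and 6.23, 26.3 and 6.75 in the other zones in the same order. Within intervals longer than 2000 bp, the only ones that can hold a member, the zone up to 1000 bp had 79.9 consensus regions per Mb and 26.3 of all 3 lists. The zone's edges were not marked by a step: the next 250 bp beyond 2000 bp had 61.3 per Mb and the 250 bp after that 59.6. Among the steps up to 1000 bp the density was 110 nearest the gene, then 61.6, 79.3 and 74.4.

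Within the zone the density varied little. In the 4 steps of 250 bp that make up the zone the density was 70.4, 63.3, 62.5 and 66.3 per Mb, with 206, 150, 122 and 108 member regions. The share held by all 3 lists was 34.0%, 34.0%, 33.6% and 39.8% in these steps, and the list 2 median fold enrichment was 8.07, 7.91, 9.40 and 8.09. Counted by list, regions with a peak in the members' zone numbered 43.7 per Mb in list 1, 142 in list 2 and 90.3 in list 3. Inside genes the same counts were 38.0, 83.1 and 49.4 per Mb. List 1 thus differed less between the zones than lists 2 and 3, and regions of a single list numbered 121 per Mb in the members' zone, against 110, 146 and 81.0 inside genes, up to 1000 bp outside and beyond 2000 bp.

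**Figure D3:**
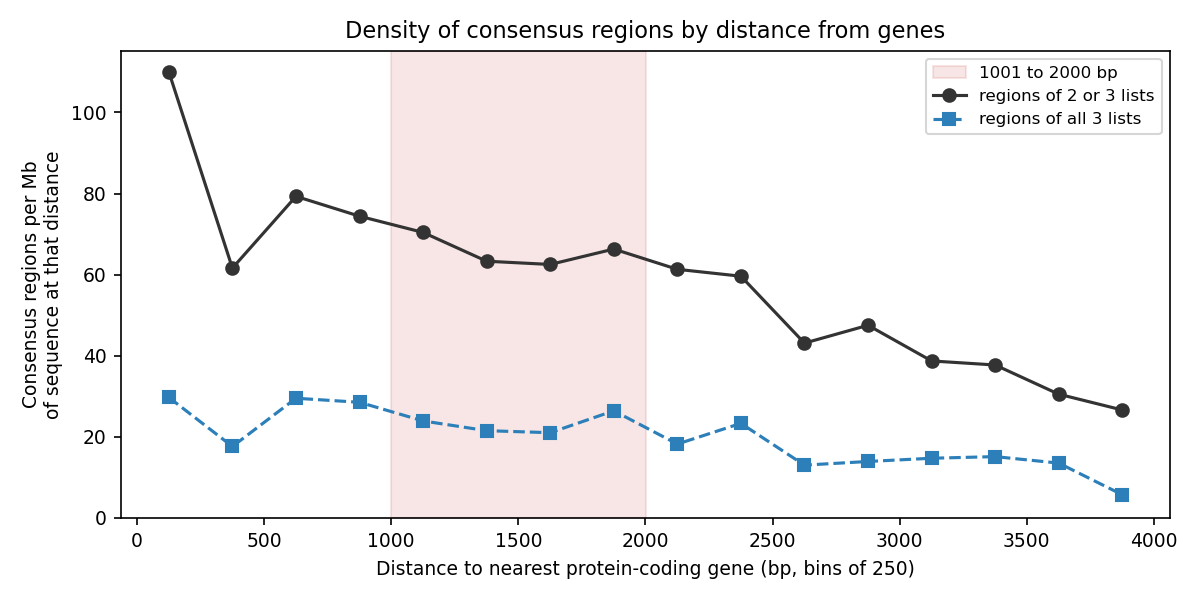
Consensus regions per Mb of sequence at each distance from the nearest protein-coding gene (linear axis, steps of 250 bp up to 4000 bp), for regions of 2 or 3 lists (circles) and of all 3 lists (squares). Over the shaded distances up to 2000 bp the circles run between 62.5 and 70.4 per Mb, and the last step shown has 26.6.

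The rule fixes only the nearer gene, and the gene on the other side was usually out of reach. The interval between the flanking genes had a median length of 4650 bp (quartiles 3620 and 6260), and the second flanking gene lay a median of 3090 bp away. It was also within 2000 bp for 104 of 586 member regions (17.7%), and beyond 5000 bp for 133 (22.7%). Another consensus region lay in the same interval for 245 member regions (41.8%), and 54 had one within 1000 bp. The members' share of consensus regions was lowest on chromosome 1 (147 of 1338) and highest on chromosome 5 (155 of 1104).

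Summits of the lists coincided closely in most member regions. The largest distance between summits had a median of 44 bp (quartiles 22 and 116), against 74 bp inside genes, 49 bp up to 1000 bp outside and 63 bp beyond 2000 bp. It was at most 50 bp in 317 of 586 member regions (54.1%, 95% Wilson interval 50.0 to 58.1) and over 300 bp in 91. Over the 2 lists left without replicate 2 or 3 the median was 25 and 27 bp, where fewer summits enter the distance. The merged regions themselves were 239 to 4748 bp long (median 756 bp), so 315 of 586 (53.8%) had an edge within 1000 bp of a gene and 13 overlapped one. In 519 (88.6%) the strongest summit of each list, taken alone, met the same distance rule.

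**Figure D4:**
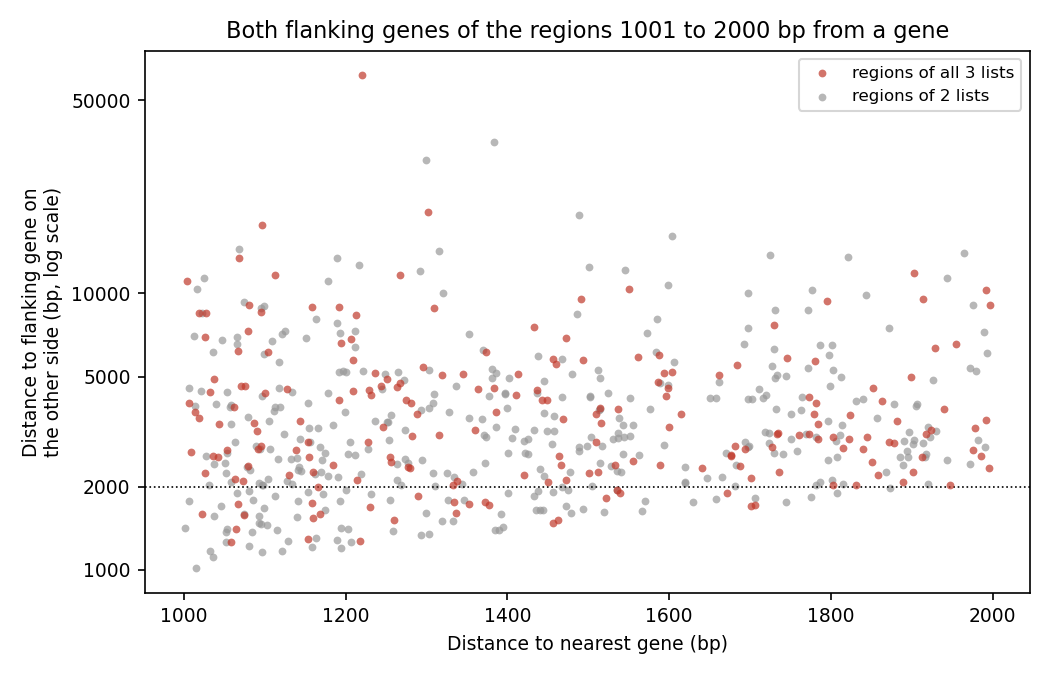
Distance of each of the 586 member regions to its nearest protein-coding gene (linear axis) and to the flanking gene on the other side (log axis); darker red points are the 205 regions of all 3 lists, grey points those of 2 lists, and the dotted line marks 2000 bp. Below the line lie the 104 regions with both genes within 2000 bp, and the farthest second gene is 61425 bp away.

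The genes beside these regions were then counted. Of 27444 protein-coding nuclear genes, 680 lay beside a member (2.48%), meaning that the member's position was over 1000 and at most 2000 bp from the gene. There were 252 such genes without replicate 2, 279 without replicate 3 and 233 with regions of all 3 lists only, so the shares of genes given here hold for regions of at least 2 lists. Only 11188 genes have any such position that is also over 1000 bp from every other gene, and 6.08% of these were beside a member. Of 398 listed genes of hormone, light, growth and control pathways, 49 were beside a member, or 20.9% of the 235 with such a position. Without replicates 2 and 3 in turn the 49 became 31 and 28. The lists hold selected genes and carry no test. Of the 680 genes, 20 had 2 member regions and 326 have no symbol in the gene table. Gene strand was not used here, so regions are not divided into upstream and downstream.

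Class II homeodomain-leucine zipper genes, transcription factors that act in shade avoidance and in auxin responses, stood beside members most often. Of the 10 listed, 7 did, and all 10 have a position in that zone. Both counts include HB18 (ATHB18), which was put on the list after the values were seen. All 10 also had a consensus region of some class inside or within 2000 bp. The same held for 217 of the 398 listed genes and 6536 of all 27444 genes. These counts include the member regions themselves, so nearness to regions of the other classes was not separated. The region 1840 bp from HB4 is described above. HAT1 had its region 1309 bp away (chromosome 4, 9737822 to 9738980), with fold enrichments of 5.93, 27.55 and 12.59 and summits within 33 bp. The region beside HAT22 at 1076 bp (chromosome 4, 17770090 to 17771046) had 6.27, 14.86 and 5.88. HAT2 had one placed 1026 bp away at chromosome 5, 19217676 to 19219815 (4.15, 11.42 and 13.33), whose strongest summits lay 908, 1475 and 1457 bp from the gene in lists 1, 2 and 3.

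HB18 (ATHB18), HAT9 and HAT3 complete the 7, and were named after their values were seen. HB18 lay 1091 bp from its region (6.03, 17.21 and 7.59), and the auxin efflux carrier gene PIN3 had a further member region at 1488 bp in the same interval of 4274 bp. HAT9 lay 1976 bp from a region with 4.07, 12.23 and 6.05, whose strongest summits lay 2086, 2064 and 1779 bp from HAT9 in lists 1, 2 and 3. HAT3 lay 1192 bp from a weak region of lists 2 and 3 with 4.17 and 3.5. Placed by the midpoint of the merged region instead of the mean summit, 3 of the 10 listed genes were beside a member, so this count rests on the choice of position.

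Of 17 class I homeodomain-leucine zipper genes, 4 were beside a member (28.6% of the 14 with a position). HB16 had the strongest region, 1457 bp away (9.84, 24.85 and 15.20). HB5 had member regions on both sides, at 1229 bp (6.24, 15.02 and 20.93) and at 1103 bp (8.25 and 2.56 in lists 2 and 3). HB-3 likewise had 2, at 1399 bp (9.37 and 7.40) and at 1394 bp (9.17 and 3.70), both of lists 2 and 3, and AT5G15140 lay nearer to the second at 1385 bp. HB-7, known as a drought-responsive gene, lay 1903 bp from a region with 4.19, 14.06 and 6.05.

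The auxin list had 10 of 44 genes beside a member (28.6% of 35). The related kinases WAG1 and WAG2, which act on auxin efflux carriers, both did, WAG2 at 1130 bp with 6.71, 20.44 and 15.30 and WAG1 at 1822 bp with 5.02, 13.86 and 7.12. Of the YUCCA enzymes of auxin synthesis, YUC9 lay 1144 bp from a region with 5.53, 21.01 and 7.27, and YUC5 1413 bp from one with 5.24, 7.39 and 7.13. The others lay beside weaker regions. PIN3, for an auxin efflux carrier, had 6.91 and 3.01 in lists 2 and 3 at 1488 bp, and PID, for a kinase that directs such carriers, had 3.96 and 3.6 at 1155 bp. Further genes of the list were the auxin response factor genes ARF8 (3.17 and 4.01 in lists 1 and 3 at 1249 bp) and MP (4.60 and 4.40 in lists 2 and 3 at 1944 bp) and the repressor gene SHY2 (IAA3; 2.74, 5.86 and 4.37 at 1852 bp).

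Gibberellin genes numbered 6 of 26, of which 20 have such a position. RGA (RGA1), which encodes a DELLA repressor of growth, had 2 member regions, at 1562 bp (6.08, 20.72 and 10.49) and at 1141 bp (8.06 and 4.55 in lists 2 and 3). Its first region shared an interval with 3 more consensus regions. The inactivating enzyme gene GA2OX6 lay 1160 bp from a region with 5.80, 12.66 and 13.85, and the biosynthetic gene GA20OX3 1733 bp from one with 4.5, 15.55 and 7.25. GA2OX4 lay 1651 bp from a region of lists 2 and 3 (7.33 and 6.37), with MYB112 nearer at 1440 bp. The receptor genes GID1B (1620 bp, with 6.64 and 6.50) and GID1A (1385 bp, with 14.36 and 2.17) were the other two, each beside a region of lists 2 and 3, and AT3G05110 was nearer than GID1A at 1259 bp.

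Brassinosteroid genes numbered 4 of 28 (18.2% of 22). Beside IBH1 these were the receptor gene BRI1 at 1711 bp, the growth-promoting helix-loop-helix gene PRE1 at 1906 bp and the biosynthetic gene CPD at 1552 bp. BRI1 had 9.35 and 7.03, PRE1 16.48 and 4.2, and CPD 10.66 and 3.74 in lists 2 and 3, with no list 1 peak in any of the 3. Ethylene genes numbered 4 of 23 (23.5% of 17). The ethylene synthesis genes ACS5 and ACS9 lay 1598 and 1509 bp from regions with 5.77, 33.69 and 9.08 and with 4.70, 12.01 and 7.45. The receptor gene EIN4 lay 1589 bp from a region with 10.01, 30.14 and 8.37, to which AHL19 was nearer at 1169 bp. EIN2, which transmits the ethylene signal, lay 1888 bp from one with 6.15 and 4.03 in lists 2 and 3, to which LOG6 was nearer at 1172 bp.

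Cell wall genes numbered 4 of 23 (26.7% of 15). Apart from XTH15, the regions of the expansin gene EXPA4 (1975 bp), of XTH30 (1543 bp) and of the cellulose synthase gene CESA6 (1502 bp) were all of lists 2 and 3, with 9.74 and 5.55, 7.33 and 5.88, and 11.09 and 3.87. Clock genes numbered 2 of 27 (15.4% of 13), namely CDF3 at 1734 bp (4.33, 9.30 and 5.88) and PRR5 at 1281 bp (2.2, 10.89 and 3.95). Light-signalling genes numbered 3 of 45 (13.6% of 22) and none had a region of all 3 lists. The blue-light receptor gene PHOT1 lay 1572 bp from a region with 11.16 and 5.10 in lists 2 and 3, PIF3 1661 bp from one with 4.92 and 4.01, and BBX29 1411 bp from one with 5.40 and 5.24, with AT5G54480 nearer.

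Plastid lists hold few genes with such a position, and those named here are 1 of 4 such genes of chlorophyll synthesis, 1 of 3 of carotenoid synthesis and 1 of 14 of the photosystem, light-harvesting and Rubisco list. PPOX (PPOX1), 1 of 23 chlorophyll genes listed, lay 1992 bp from a region with 3.97, 12.02 and 6.86. The strongest summits of that region lay 1801, 2245 and 1778 bp from PPOX in lists 1, 2 and 3. PSY of carotenoid synthesis, 1 of 14 listed, lay 1255 bp from one with 2.94, 6.34 and 7.33. RBCS1A, 1 of 36 listed genes, lay 1736 bp from one with 3.76, 13.57 and 10.71. The abscisic acid list (0 of 19), cytokinin oxidases (0 of 7), chloroplast regulators (0 of 11) and seed storage proteins (0 of 10) had no gene beside a member. Of these genes 13, 4, 6 and 2 have a position where a member could lie, so at the 6.08% of all such genes these counts of 0 are near the background. Of the 19 abscisic acid genes, 13 had a consensus region of some class inside or within 2000 bp. The list is a selection, and its 0 holds for the listed genes only. PP2CA, with 2 member regions, and HAI1, 1815 bp from a region with 4.37, 14.81 and 5.15, are not in it. Each control list had 1 gene, TUB6 of 18 housekeeping genes (1160 bp, with 3.97, 14.36 and 5.66) and AP2 of 17 floral genes (1771 bp, with 10.17 and 6.17 in lists 2 and 3).

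**Figure D5:**
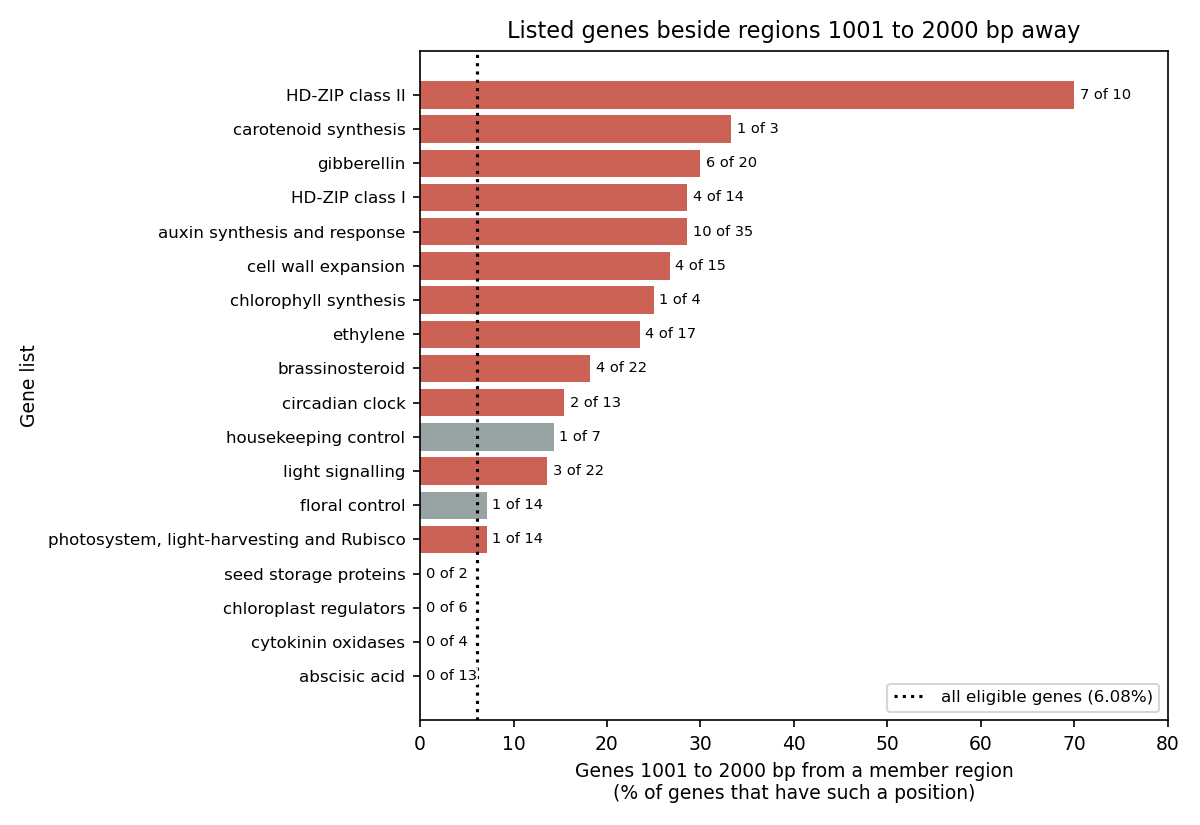
Share of listed genes beside a member, as a percentage of those genes that have any position where a member could lie beside them (linear axis); grey bars are the control lists, each bar gives its counts, and the dotted line marks 6.08% of all such genes. The HD-ZIP class II list stands at 7 of 10, including ATHB18, added after the values were seen. The control lists stand at 1 of 7 and 1 of 14.

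Grouping genes by symbol, done after the values were seen, gave 142 families of at least 10 genes, of which 83 had no gene beside a member. Of 67 WRKY genes, transcription factors best known from defence, 9 were beside one (18.0% of the 50 with a position), against 6.08% of all such genes. Besides WRKY22 and WRKY13, the strongest was WRKY42 at 1996 bp (5.13, 21.33 and 8.91). For all 3 another gene was nearer to the region's position, in the case of WRKY42 AT4G04460 at 1166 bp. The strongest summits of the WRKY13 region, though, lay nearer to WRKY13. The other 6 were WRKY6, WRKY17, WRKY29, WRKY38, WRKY54 and WRKY67, of which WRKY38 and WRKY67 had regions of all 3 lists. Of 22 RTFL genes, which encode small growth-restricting peptides, 4 were (26.7% of the 15 with a position). RTFL17 lay 1260 bp from a region with 9.22, 22.03 and 16.00, and RTFL18 1062 bp from one with 9.18, 38.00 and 11.94. Of genes with HB symbols, the homeodomain-leucine zipper genes included, 10 of 41 were beside a member (31.2% of 32). The zinc-finger homeodomain genes among them were HB33 at 1256 bp (5.44, 16.65 and 23.37) and HB23 at 1319 bp (4.55, 25.27 and 5.21). HB34 at 1493 bp (4.26, 19.63 and 4.54) and HB30 at 1015 bp (3.8 and 4.2 in lists 2 and 3) were the others. Of 22 GATA genes 5 were beside a member (29.4% of 17), all with regions of lists 2 and 3 alone. Families not described here had shares as high, such as MAPKKK with 3 of 13 (33.3% of 9). Of genes with MYB symbols 7 of 116 were beside a member (7.14% of 98), with NAC symbols 2 of 79 (4.08% of 49) and with SAUR symbols 0 of 16. Genes of a family under another symbol or only a locus code were not counted, and 326 of the 680 genes have no symbol. The symbol counts, the 0 of SAUR included, therefore miss genes of a family that lie beside a member. Examples without such a symbol are the SAUR-like genes AT2G46690 (1546 bp) and AT4G34770 (1993 bp). The NAC-domain genes NAM (1381 bp) and NAP (1211 bp) are likewise not among those counted.

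Annotated non-coding genes and pseudogenes did not enter the rule. The position of 54 of 586 member regions lay inside one (9.22%, 95% Wilson interval 7.13 to 11.8), against 7.64% of the other consensus regions outside protein-coding genes and 16.3% of all sequence in the members' zone. Long non-coding RNA genes accounted for 36 and pseudogenes not annotated as transcribed for 10. Among regions beyond 2000 bp, pseudogenes accounted for 36 of 447. The strongest such member was the RGA1 region at 1562 bp, inside the lncRNA gene AT2G04015. The next 4 lay in lncRNA genes beside FP3 (1288 bp, with 5.29, 22.92 and 10.06), AT5G47060 (1079 bp, with 4.80, 20.64 and 14.96), AT5G08139 (1244 bp, with 4.37, 33.04 and 19.03) and AT1G27210 (1127 bp, with 4.58, 19.34 and 9.50). The AT5G08139 region was 3213 bp long and merged 6 peaks, so its place in an lncRNA gene rests on the mean summit. Its strongest summits lay 1456, 1440 and 1430 bp from AT5G08139 in lists 1, 2 and 3.

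The regions closest to the edges of the distance rule are given as a description. Just over 1000 bp were regions 1002 bp from PP2CA (4.64 and 2.55 in lists 2 and 3) and 1004 bp from SKU5 (4.17, 10.75 and 4.2). Just outside the rule, at 1000 bp, were those of NAC048 (2.25 and 6.89 in lists 1 and 2) and AT1G19840 (4.12, 11.54 and 5.88). Just inside 2000 bp were the regions of AT1G62480, described above, and of MYB56 at 1995 bp (2.77, 7.94 and 3.3). Just past 2000 bp were those of AT4G37235 (6.11 and 4.71) and HSP81-2 (4.25 and 5.55), both in lists 2 and 3.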

How the data were processed

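Bowtie 0.12.7, CASAVA 1.8.0 and MACS 1.4.1 and the build TAIR10 stand in the submitters' processing notes. Per the file headers, each peak list came from 1 PIF1 library and 1 wild-type library, with no pooling, a p cutoff of 1e-05 and the smaller data set scaled towards the larger. The deposited lists give tag counts per peak (unscaled, of the PIF1 library), a score (10 times the negative log10 of the p), a fold enrichment (a ratio to local wild-type background) and an FDR in percent, all made by the authors' peak caller. Redundancy and duplicate limits follow the file headers.

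Samples were grouped by titles and genotype labels. Distances and names rest on a TAIR10.1 gene table, without strand, of which no coordinates are printed. As a check, 35.7% of consensus regions lay inside a protein-coding gene as placed and 51.7% after a shift of 1000 bp. No genome sequence was used here, so the planned G-box and PBE-box counts and the upstream share were not analysed here. Python 3.11.15, pandas 2.3.3 and scipy 1.17.1 were used, and merging and placing were tested on simulated data.

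Members and the 18 gene lists (398 genes, all matched by locus code) were chosen with earlier results of these data known. Class I homeodomain genes, cytokinin oxidases and ATHB18 were added after the values were seen. Named were the 12 strongest members of all 3 lists, up to 4 genes a list by mean percentile, the 5 strongest members in non-coding genes, and 2 regions on either side of each edge. Other listed genes, HAI1, symbol families and the SAUR-like and NAC-domain genes without such symbols were named after their values were seen. The values of 1 gene are not reported here. Wilson intervals cover counting error only. Regions are not replicates, and nothing says whether libraries of a group share seedlings, so the spread between lists may be partly technical. Alternatives changed the replicates, lists needed, peak thresholds, overlap, position, gene set and gene choice.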

Additional observations from a re-analysis of the deposited data

How the results depend on the processing

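The higher median fold enrichment of members than of all other consensus regions kept its direction under each of the 9 alternatives run, with mean log2 differences of 0.07 to 0.35, and no p could pass 0.05 with 3 lists. The count of member regions, 586, was 205 with regions of all 3 lists only, 330 with a peak score of at least 100, 248 with peaks of at least 5-fold, and 220 to 537 with 1 replicate left out. The 49 listed genes became 28 with regions of all 3 lists only and 28 to 49 with 1 replicate left out. The share held by all 3 lists, 35.0%, was 31.0% with peaks of at least 5-fold. The share at non-coding genes, 9.22%, was 5.85% with regions of all 3 lists only, 6.85% with peaks of at least 5-fold and, by construction, 0 with distances to any gene. The median summit distance, 44 bp, was 35 bp with a peak score of at least 100, 29.5 bp with peaks of at least 5-fold and 25 to 38 bp with 1 replicate left out. The causes were not tested, apart from fewer peaks or lists entering. Of 61 regions named or listed, 36 were still members without replicate 2, 34 without replicate 3, 37 with regions of all 3 lists only, 48 by midpoint and 51 with distances to any gene. The alternatives for motifs and upstream position were not run. No paired analysis was possible because wild-type libraries have no values of their own in the peak lists. A region without a list 1 peak is not shown to be unbound in that library.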
